A study of Mus musculus with 15 samples.

Results

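Guanylate-binding proteins (GBPs) were examined as 8 genes, GBP2 to GBP9, chosen by symbol from a mouse RNA-seq table of 24891 genes, and all 8 were listed. The table came from 105K tumors. 105K cells are a Tsc2-deficient line from a mouse renal tumor and were implanted under the skin of wild-type C57BL/6J mice. The study compared tumors whose cells carried an shRNA against B7-H3 (Cd276), an immune checkpoint protein, with tumors that carried a non-targeting shRNA, to ask how tumor cells and host respond when B7-H3 is lowered. Each of 5 groups had 3 libraries: whole (bulk) tumors with the non-targeting control, called sh-NC, whole tumors with a first shRNA, called sh-B7-H3 (1), and tumor cells sorted from tumors with the control, with the first shRNA, or with a second one, called sh-B7-H3 (2), that targets another stretch of the mRNA.

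All 15 libraries shared the loss of Tsc2, the cell line and the host strain, and the study's methods give male mice aged 6 weeks at injection. The shRNA cells were drug-selected pools, not single clones. Sorted cells were those that passed a magnetic column after binding of non-tumor cells, so their purity depended on that depletion. All mice had an intact immune system, and no library of cultured cells was compared here. Nothing in the labels says whether a bulk tumor and a sorted sample came from the same mouse.

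GBPs are large GTPases that interferons, above all IFN-γ, induce strongly in most cell types. They collect on membranes around intracellular pathogens, act there beside the smaller immunity-related GTPases (IRGs), and help to set off inflammasomes. In tumors their RNA is widely read as a sign that cells have met IFN-γ.

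The genes lie in 2 clusters. On GRCm38.p6, the assembly that mm10 also names, the chromosome 3 cluster holds GBP5 (chr3:142496934-142522344), GBP7 (chr3:142530336-142550151), GBP3 (chr3:142560016-142573213) and GBP2 (chr3:142620663-142638008), all on the plus strand, with GBP2B between GBP3 and GBP2. The chromosome 5 cluster holds GBP8 (chr5:105012513-105053609), GBP9 (chr5:105076464-105110357), GBP4 (chr5:105115767-105139586) and GBP6 (chr5:105270702-105295871), all on the minus strand, with GBP10 between GBP4 and GBP6. All 8 are annotated as protein-coding.

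RefSeq promoter entries of this build, each 300 bases with 250 before the start site, were matched for GBP2, GBP3, GBP5 and GBP7. No entry was matched for GBP4, GBP6, GBP8 or GBP9. The promoters were searched on both strands for GAAA, any 2 bases and GAAA again, the core of an interferon-stimulated response element (ISRE), which on the other strand is TTTC, any 2 bases and TTTC, and for TTCNNNGAA, the core of the IFN-γ-activated site (GAS), which reads the same on both. ISRE-like letters stood in promoters of all 4 matched genes, against 3.44% of 32851 promoters of the same length. GAS letters stood in those of GBP5 and GBP7, with 2 matches in each, against 8.3% of all promoters. The stretches shown hold the ISRE-like match of each gene, since these are the letters the promoters had in common. They are RefSeq sequences 5′ to 3′ on the plus strand, 100 bases each, with complete ISRE-like and GAS matches in capitals.
GBP2 (chr3:142620519-142620618): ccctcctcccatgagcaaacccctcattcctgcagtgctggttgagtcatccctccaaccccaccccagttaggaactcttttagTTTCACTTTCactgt
GBP3 (chr3:142559920-142560019): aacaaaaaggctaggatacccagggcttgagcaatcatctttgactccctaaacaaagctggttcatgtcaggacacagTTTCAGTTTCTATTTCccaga
GBP5 (chr3:142496684-142496783): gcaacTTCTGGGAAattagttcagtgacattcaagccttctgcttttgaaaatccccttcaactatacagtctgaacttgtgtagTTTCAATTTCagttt
GBP7 (chr3:142530198-142530297): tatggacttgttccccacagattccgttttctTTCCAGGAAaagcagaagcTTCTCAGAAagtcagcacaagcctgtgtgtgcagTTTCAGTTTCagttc

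The ISRE-like match began 59 bases before the start site in GBP2, 53 before it in GBP7 and 165 before it in GBP5. GBP3 had 2 overlapping matches, 45 and 39 bases before the start site of its first promoter entry, and none in its second. No ISRE-like match overlapped a GAS match. The first capital run shown for GBP5 and the first 2 shown for GBP7 are GAS letters. A match is a string of letters and was not tested for binding by any factor.

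The authors deposited FPKM, fragment counts divided by gene length and by the library total, which allow levels to be compared between genes per length. Values were rescaled between libraries and are given as scaled FPKM, and log2 differences are on the log2(scaled FPKM + 1) scale, which understates changes of low genes. The summed FPKM of a library ran from 435533 to 1544000, of which the small RNA gene MIR6236 held between 6.01 and 79.7%. Read totals are not in the table. The steps between low values gave depths between 0.470 and 1 relative to sorted sh-NC replicate 1, so the precision of a single low value in reads is unknown.

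Cd276 RNA, the target of both shRNAs, ran from 17.3 to 34.0 scaled FPKM in sorted sh-NC cells, from 7.29 to 14.0 with sh-B7-H3 (1) and from 23.3 to 25.7 with sh-B7-H3 (2). In bulk tumors it ran from 20.8 to 23.5 with sh-NC and from 17.8 to 24.4 with sh-B7-H3 (1). Knockdown libraries therefore overlapped with controls in bulk material and for the second shRNA, and groups are named by what the libraries are labelled. The 7 renal epithelial markers of the tumor cells (EPCAM, KRT8, KRT18, KRT19, CDH1, PAX8 and PAX2) summed to between 753 and 850 scaled FPKM in bulk sh-NC tumors. Their sum was between 993 and 1316 in bulk sh-B7-H3 (1) tumors. In sorted cells it was 825 to 1017 with sh-NC, 1402 to 1617 with sh-B7-H3 (1) and 1627 to 1798 with sh-B7-H3 (2). Replicate 1 of the sorted sh-B7-H3 (2) libraries stood apart: the sum of its 5 leukocyte markers was 176 scaled FPKM, whereas this sum was 1.96 to 6.77 elsewhere among sorted libraries (n = 8) and 142 to 308 in bulk tumors. Values without it are given beside the results over sorted cells.

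In sorted tumor cells labelled with either shRNA, all 8 genes rose against sorted sh-NC cells. GBP2 was the most abundant member in every library, and its mean in scaled FPKM was 26.6 ± 3.85 (SD, n = 3) in sorted sh-NC cells and 284 ± 98.6 (SD, n = 6) over both shRNAs, a ratio of 10.7. The log2 differences over both shRNAs ran from 1.72 for GBP8 to 3.31 for GBP2, with a median of 2.65, against 0.01 over all 11424 genes tested. In that comparison 12.6% of the genes tested were called higher at a limma adjusted p below 0.05, and 20.5% were called in either direction.

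**Figure D1:**
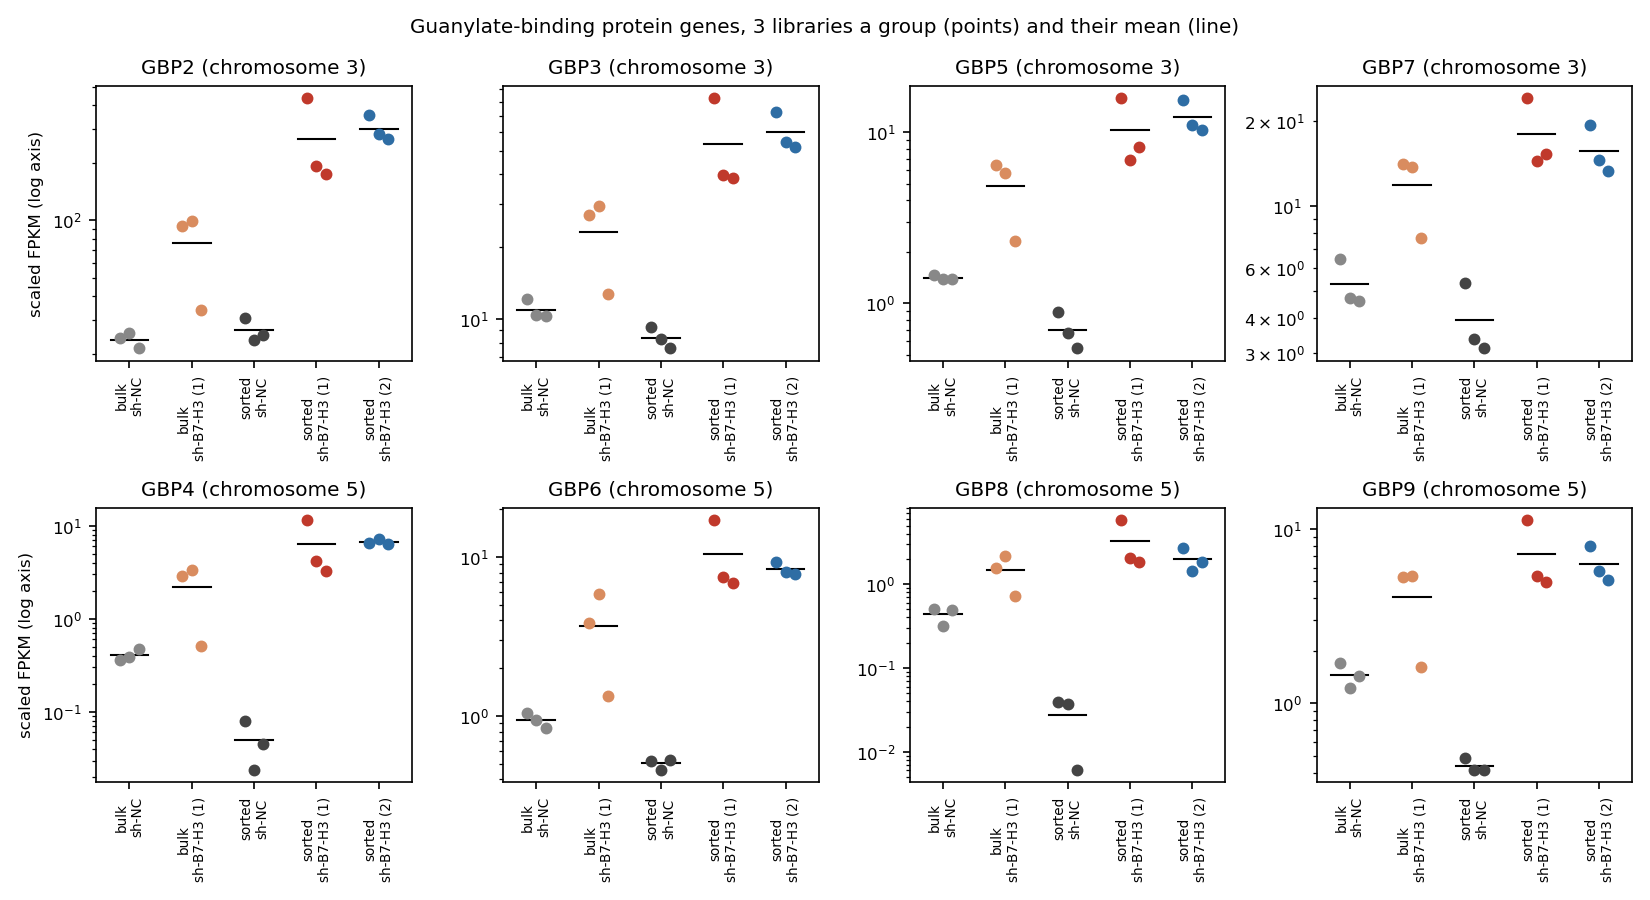
Scaled FPKM of each GBP gene in all 15 libraries on log axes, with points for replicates 1 to 3 from left to right and lines for group means. In every panel the 6 sorted libraries labelled with an shRNA against B7-H3 lie above the 3 sorted sh-NC libraries.

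GBP2, which gathers on the vacuole of Toxoplasma and is anchored by a lipid on its C-terminal end, had 30.9, 23.6 and 25.2 scaled FPKM in sorted sh-NC replicates 1, 2 and 3. Cells labelled sh-B7-H3 (1) had 435, 192 and 174, and cells labelled sh-B7-H3 (2) had 354, 283 and 266. The lowest knockdown library was several-fold above the highest control, and replicate 1 was the highest of each knockdown group. The first shRNA gave a log2 difference of 3.16 (SE 0.33, limma adjusted p = 0.000461), the second one of 3.45 (SE 0.17, limma adjusted p = 5.5e-05).

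GBP3, also found on the Toxoplasma vacuole, was the next in level, with 9.27, 8.29 and 7.56 scaled FPKM in sh-NC cells. It had 82.6, 39.6 and 38.5 with sh-B7-H3 (1) and 72.7, 54.6 and 51.8 with sh-B7-H3 (2). Groups did not overlap, and the lowest knockdown library stood far above the highest sh-NC library. Over both shRNAs the log2 difference was 2.57 (SE 0.23, limma adjusted p = 2.51e-05).

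GBP7, which has been tied to assembly of the phagocyte NADPH oxidase, had 5.34, 3.37 and 3.11 scaled FPKM in sh-NC cells. It had 24.1, 14.4 and 15.3 with sh-B7-H3 (1) and 19.3, 14.5 and 13.3 with sh-B7-H3 (2). Its rise had the smallest ratio of group means among the 8 genes, 4.27 over both shRNAs, with a log2 difference of 1.85 (SE 0.20, limma adjusted p = 8.04e-05). Of its 75-base stretches, 11.3% also occur in transcripts of other genes, 10.03% in the gene model GM43802, so reads could have been shared between them in the authors' counting.

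GBP5, a lipid-anchored member linked to inflammasome assembly, had 0.894, 0.667 and 0.545 scaled FPKM in sh-NC cells. With sh-B7-H3 (1) it had 15.7, 6.90 and 8.13, and with sh-B7-H3 (2) it had 15.3, 11.1 and 10.3. This gene was below 1 scaled FPKM in each control library and above 6 in each knockdown library. The log2 difference over both shRNAs was 2.80 (SE 0.23, limma adjusted p = 1.39e-05) and became 3.78 with a pseudocount of 0.1.

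The 4 genes of the chromosome 5 cluster started from lower levels. GBP6 had 0.524, 0.458 and 0.532 scaled FPKM in sh-NC cells, 17.1, 7.55 and 6.86 with sh-B7-H3 (1), and 9.34, 8.04 and 7.82 with sh-B7-H3 (2). Its log2 difference over both shRNAs was 2.73 (SE 0.23, limma adjusted p = 1.51e-05). GBP6 is the least certain member, because 67.3% of its 75-base stretches also occur in other transcripts, 61.7% in the gene model GM43302, and GBP10 shares stretches with both. GBP9, like GBP6 a member that reaches the Toxoplasma vacuole, had 0.485, 0.418 and 0.416 scaled FPKM in sh-NC cells, 11.2, 5.37 and 4.93 with sh-B7-H3 (1), and 7.97, 5.70 and 5.11 with sh-B7-H3 (2). The log2 difference was 2.37 (SE 0.22, limma adjusted p = 2.88e-05).

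GBP4, which has been described as a brake on IRF7, was close to 0 in sh-NC cells, at 0.0799, 0.0238 and 0.0451 scaled FPKM. It had 11.5, 4.11 and 3.24 with sh-B7-H3 (1) and 6.46, 7.17 and 6.36 with sh-B7-H3 (2). GBP8 was also close to 0 in sh-NC cells, at 0.0391, 0.0370 and 0.00608 scaled FPKM, and had 5.82, 2.06 and 1.84 with sh-B7-H3 (1) and 2.68, 1.41 and 1.85 with sh-B7-H3 (2). Both genes were nearly unlisted in the controls, and most knockdown libraries held between 1 and 3 units of GBP8 and more than 3 of GBP4. Their log2 differences over both shRNAs were 2.75 for GBP4 (SE 0.28, limma adjusted p = 5.71e-05) and 1.72 for GBP8 (SE 0.27, limma adjusted p = 0.00125). With a pseudocount of 0.1 they became 5.36 and 4.26, so the order of the 8 differences depends on this setting, and with 0.1 GBP4 had the largest and GBP7 the smallest. GBP4, GBP5, GBP6, GBP8 and GBP9 were below 1 scaled FPKM in all 3 sh-NC libraries and passed the filter on low values only through the knockdown libraries, where they are high. Their calls therefore follow in part from the filter, which GBP2, GBP3 and GBP7 passed in sh-NC cells too. Without sh-B7-H3 (2) replicate 1, the 8 differences over both shRNAs ran from 1.70 for GBP8 to 3.23 for GBP2, and all 8 remained called (limma adjusted p = 3.03e-05 to 0.00316).

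For each shRNA on its own, GBP2, GBP3 and GBP7, the 3 genes that passed the filter in sh-NC cells, were called higher, as were the 5 that passed it only through the knockdown libraries, so no share of the 8 is read against the background. That background was 9.03% of 11163 genes called higher (13.4% in either direction) for sh-B7-H3 (1), where the members' differences ran from 1.92 to 3.16. It was 11.7% of 11243 genes (19.1% in either direction) for sh-B7-H3 (2), where they ran from 1.52 to 3.45. All 6 knockdown libraries were higher than all 3 controls for GBP2, GBP3 and GBP7 and for the 5 genes let in by the filter, and 13.6% of all genes tested over both shRNAs did so. The 2 comparisons share the sh-NC libraries. Without replicate 1 of sh-B7-H3 (2), the library with host-cell markers, all 8 genes remained called for sh-B7-H3 (2) among the genes of the full comparison, with log2 differences of 3.33 for GBP2, 2.53 for GBP3, 2.78 for GBP5 and 1.35 for GBP8, the smallest of the 8. Without replicate 1 of sh-B7-H3 (1), the highest library for all 8 genes, all 8 remained called for sh-B7-H3 (1), with 2.75 for GBP2, 2.10 for GBP3 and 1.52 for GBP8. When the filter was reapplied to the remaining libraries instead, 5 low genes left the test with any 1 knockdown library left out, and 3 of 3 were called.

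**Figure D2:**
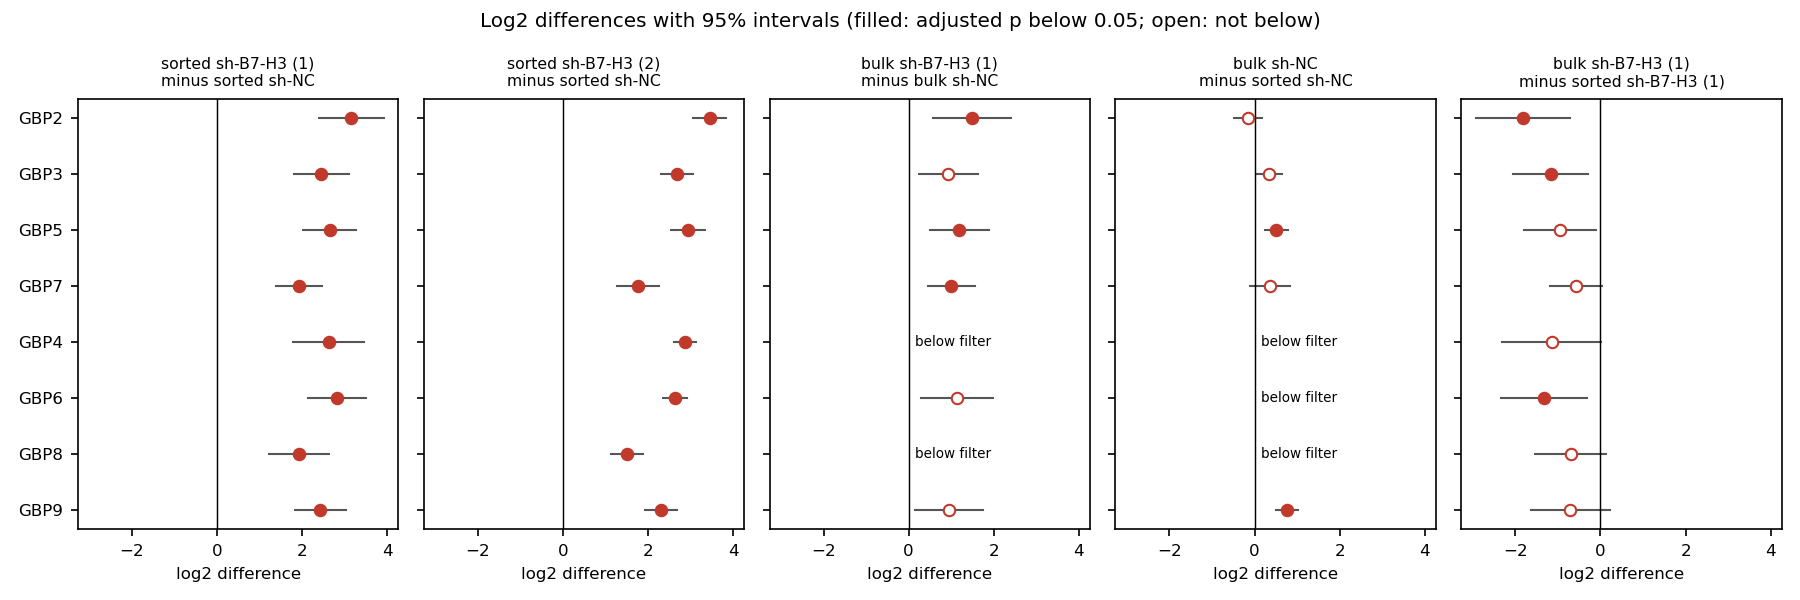
Log2 differences of the 8 genes with 95% intervals in 5 comparisons of 3 libraries against 3, with filled points for a limma adjusted p below 0.05. The differences in sorted cells against sh-NC lie between 1.52 and 3.45, and those of the 6 genes tested in bulk tumors against bulk sh-NC between 0.93 and 1.49.

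Between the shRNAs, no GBP gene was called. The log2 differences, (1) minus (2), ran from -0.29 for GBP5 and GBP2 to 0.41 for GBP8, the limma adjusted p from 0.51 to 0.849, and the libraries of the 2 groups overlapped for all 8 genes. None of the 8 had an unadjusted p below 0.05 (0.253 to 0.703), and 3.4% of 11239 genes were called. The 95% interval of the difference was -1.05 to 0.47 for GBP2, -0.36 to 1.18 for GBP8 and -0.32 to 0.65 for GBP7. Replicate numbers paired these samples by the correlation of their deviations, and with the number as a block 1864 genes and still 0 of the 8 were called, with adjusted p from 0.172 to 0.608. Without replicate 1 of sh-B7-H3 (1), GBP4 was called, with a difference of -0.72. With sh-B7-H3 (2) replicate 1 left out instead, none was called (limma adjusted p = 0.308 to 0.877), and the differences ran from -0.26 to 0.57.

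The libraries within a group differed in 1 direction for nearly the whole family. Replicate 1 was the highest of the sh-B7-H3 (1) sorted libraries for 8 of 8 genes, of the sh-B7-H3 (2) libraries for 7 of 8, and of the sh-NC libraries for 7 of 8. The summed level of the 8 genes was 603, 272 and 253 scaled FPKM in sh-B7-H3 (1) replicates 1, 2 and 3, 488, 386 and 362 in sh-B7-H3 (2), and 47.5, 36.9 and 37.4 in sh-NC. In sh-B7-H3 (1) replicates 1, 2 and 3, leukocyte markers summed to 6.24, 6.77 and 4.47 and macrophage markers to 65.9, 93.1 and 66.8. T cell markers there summed to 0.374, 0.348 and 0.243, and Y-linked genes to 0.887, 0.750 and 0.404. Leukocyte markers summed to 4.72, 1.96 and 3.18 in sh-NC. For sh-B7-H3 (2) they were 176, 3.40 and 3.40, and their part in the family's level there was not tested, apart from the values without that library. T cell markers (5 of 6 listed) summed to between 0.0311 and 0.0743 scaled FPKM in sorted sh-NC cells, with CD3E and CD4 at 0 in all 3, to between 0.243 and 0.374 with sh-B7-H3 (1), and to 14.1, 0.197 and 0.156 with sh-B7-H3 (2). Macrophage markers (6 of 6) summed to between 29.5 and 41.1 with sh-NC, between 65.9 and 93.1 with sh-B7-H3 (1), and to 310, 71.0 and 60.6 with sh-B7-H3 (2). Over both shRNAs 2 of the 4 macrophage markers tested, CSF1R and CD68, were called higher, with and without sh-B7-H3 (2) replicate 1. C1QA and C1QB were not called, with log2 differences of 0.81 and 0.69, or -0.07 and -0.16 without that library. Called higher with and without it were also 3 of the 7 renal epithelial markers, EPCAM, KRT18 and KRT19. KRT8, CDH1, PAX8 and PAX2 were not called, at 0.43, -0.46, -0.37 and -0.05 with all libraries. Of all genes tested over both shRNAs, 12.6% were called higher. Fibroblast markers (5 of 5) summed to between 17.9 and 33.3 with sh-NC, between 24.9 and 41.3 with sh-B7-H3 (1), and to 103, 63.3 and 66.5 with sh-B7-H3 (2), where COL1A1, COL1A2 and COL3A1 were called higher, the last 2 also without replicate 1. The part of these cells in the rise of the GBP genes was not tested.

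**Figure D3:**
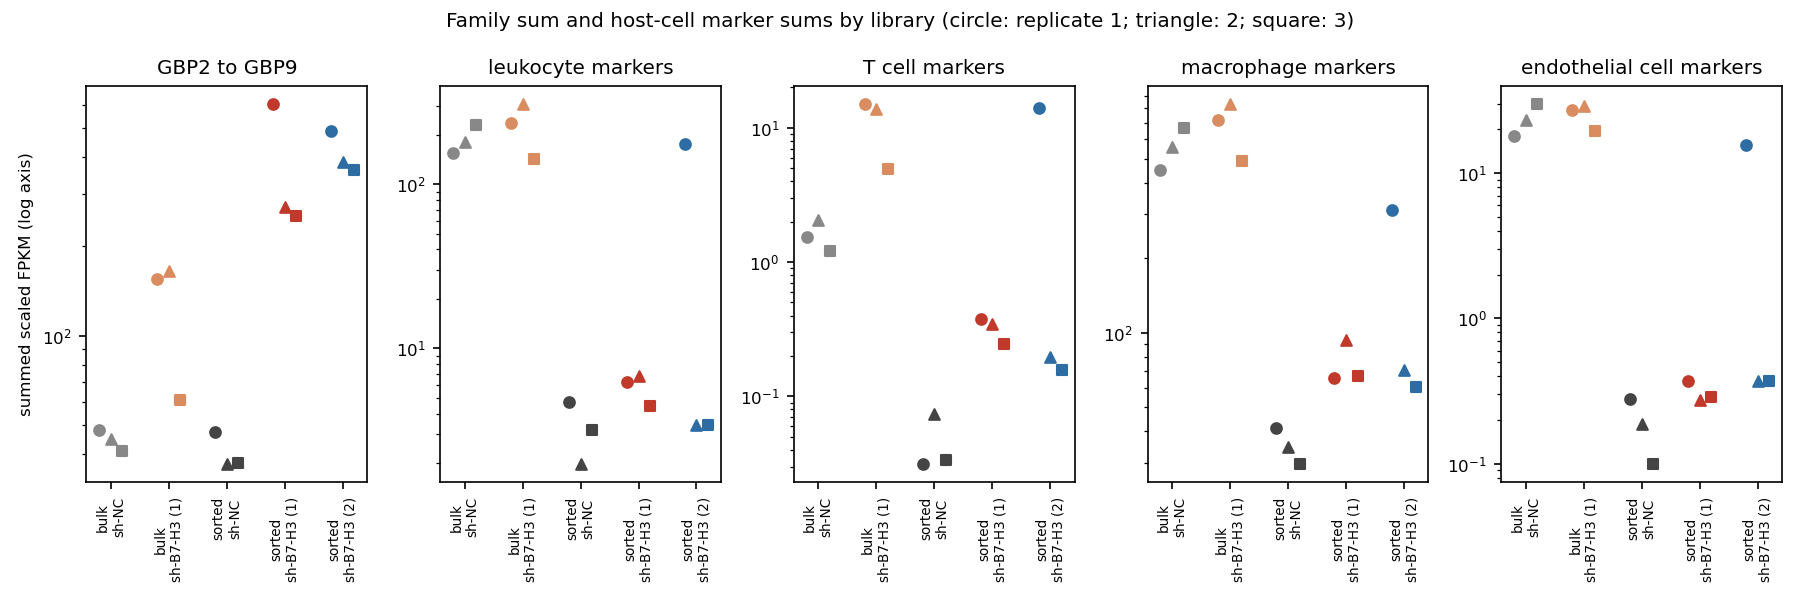
Summed scaled FPKM of GBP2 to GBP9 and of 4 marker lists of host cells in each library, on log axes, with circles for replicate 1, triangles for replicate 2 and squares for replicate 3. Sorted sh-B7-H3 (2) replicate 1 lies far above the other sorted libraries for all 4 marker lists. Its GBP sum of 488 is the highest of its group, against 386 and 362, and lies between those of the sh-B7-H3 (1) libraries. The part of host cells in this sum was not tested.

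The family's make-up also differed between groups. GBP2 held 65.5 ± 1.70% of the summed level in sorted sh-NC cells, 70.5 ± 1.66% with sh-B7-H3 (1) and 73.1 ± 0.46% with sh-B7-H3 (2) (SD, n = 3 each). The share of GBP7 was 9.57 ± 1.50% with sh-NC, 5.12 ± 1.04% with sh-B7-H3 (1) and 3.80 ± 0.15% with sh-B7-H3 (2), and its libraries did not overlap between sh-NC and either shRNA. GBP3 held 20.7 ± 1.56%, 14.5 ± 0.77% and 14.4 ± 0.39% in the same order. GBP4 held between 0.0644 and 0.168% in sh-NC libraries and between 1.28 and 1.90% in the 6 knockdown libraries. These shares add to a whole, so a higher share of some genes lowers the others, and they were not tested.

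**Figure D4:**
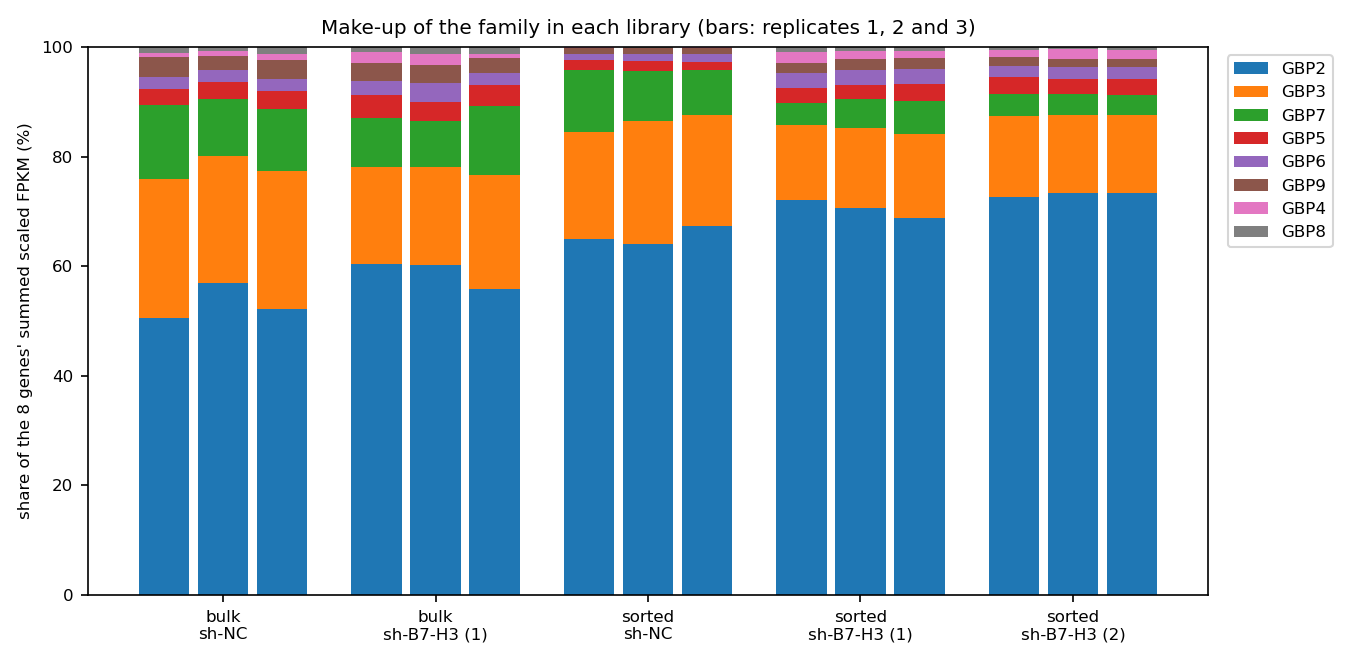
Share of each gene in the summed scaled FPKM of GBP2 to GBP9, in percent, with 1 bar for each library. GBP2 holds between 50.6 and 73.4% in every library, and the share of GBP7 is below 6.1% in the 6 sorted knockdown libraries and above 8.2% in all others.

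The order of the genes by level was GBP2, GBP3 and GBP7 at the top in every group. In sorted sh-NC cells it went on with GBP5, GBP6, GBP9, GBP4 and GBP8, where the ranges of GBP6 and GBP9 overlapped, as did those of GBP4 and GBP8, and other neighbours did not. In the 6 sorted knockdown libraries the ranges of GBP2, GBP3 and GBP7 did not overlap, while from GBP7 downward every neighbour in the order GBP7, GBP5, GBP6, GBP9, GBP4 and GBP8 overlapped the next. In bulk sh-NC tumors GBP7 was followed by GBP9 and GBP5, which overlapped, then GBP6, and last GBP8 and GBP4, which overlapped.

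In bulk tumors labelled sh-B7-H3 (1), fewer of the genes were called. Bulk RNA mixes tumor and host cells, so fewer cells of a type and less RNA per cell cannot be told apart. Of the 8 genes, 6 passed the filter on low values against bulk sh-NC tumors, and GBP2, GBP5 and GBP7 were called higher, where 12.8% of 11800 genes were called higher and 21.4% in either direction. The median log2 difference of the 6 was 1.07, against 0.02 over all genes tested.

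GBP2 had 24.3, 25.6 and 21.3 scaled FPKM in bulk sh-NC replicates 1, 2 and 3 and 93.7, 99.7 and 34.0 in bulk sh-B7-H3 (1). Its log2 difference was 1.49 (SE 0.38, limma adjusted p = 0.0365). GBP5 had 1.46, 1.38 and 1.39 against 6.47, 5.74 and 2.31, a log2 difference of 1.19 (SE 0.29, limma adjusted p = 0.0321). In both genes replicate 3 labelled sh-B7-H3 (1) lay nearest to the controls. GBP7 had 6.49, 4.72 and 4.60 against 14.1, 13.7 and 7.68, a log2 difference of 1.00 (SE 0.24, limma adjusted p = 0.0288).

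The other genes were not called in bulk tumors. GBP3 had 12.1, 10.4 and 10.3 scaled FPKM with sh-NC and 27.2, 29.5 and 12.7 with sh-B7-H3 (1), a log2 difference of 0.93 (limma adjusted p = 0.062). GBP6 had 1.05, 0.945 and 0.846 against 3.83, 5.85 and 1.35, and GBP9 had 1.71, 1.22 and 1.44 against 5.28, 5.37 and 1.62, with differences of 1.13 and 0.94 (limma adjusted p = 0.0626 and 0.086). For each of these the first 2 knockdown replicates stood clearly above the controls and replicate 3 stood close to them. GBP4, at 0.365, 0.386 and 0.476 against 2.84, 3.29 and 0.512, and GBP8, at 0.512, 0.318 and 0.490 against 1.55, 2.16 and 0.727, fell below the filter. Tested without the filter, they gave differences of 1.05 and 0.74 (limma adjusted p = 0.141 and 0.0876).

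Every sh-B7-H3 (1) tumor lay above every sh-NC tumor for 7 of 8 genes, all but GBP9. The share was 24.4% among genes that passed the filter, which leaves out GBP4 and GBP8, so count and share cover unlike sets. Replicate 3 was the lowest of the bulk sh-B7-H3 (1) tumors for 8 of 8 genes, and their summed level was 155, 165 and 60.9 scaled FPKM, against 48.0, 45.0 and 40.9 in bulk sh-NC. Some host-cell markers were high or low in the same tumors. T cell markers summed to 15.02, 13.7 and 4.95 in the sh-B7-H3 (1) tumors and to between 1.20 and 2.05 in bulk sh-NC, leukocyte markers to 235, 308 and 142 against 154 to 229, and fibroblast markers to 602, 467 and 258 against 81.2 to 161. Neutrophil markers were lower, at 3.49, 3.59 and 1.82 against 5.24 to 10.7, and endothelial sums overlapped, at 19.6 to 29.1 against 17.9 to 29.9. Called higher by limma were 2 of 2 T cell markers tested (CD3E and CD3G), 2 of 2 Y-linked genes (DDX3Y and EIF2S3Y) and 3 of 4 fibroblast markers. CD3E and CD3G passed the filter with the help of the sh-B7-H3 (1) tumors, since no T cell marker passed it in bulk and sorted sh-NC material. Called higher were also 1 of 6 macrophage, 0 of 5 leukocyte and 0 of 5 endothelial markers, and S100A8 and S100A9 of the neutrophils were called lower. The part of these cells in the GBP levels of bulk tumors was not tested. Without replicate 3 labelled sh-B7-H3 (1), 6 of 6 genes were called, and without sh-B7-H3 (1) replicate 1, sh-NC replicate 2 or sh-NC replicate 3 none was. Without sh-NC replicate 1 the count was 1.

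The rise had a larger estimate in sorted cells than in bulk tumors for all 8 genes, but the difference was called for none. Subtracting the bulk effect of sh-B7-H3 (1) from its sorted effect gave differences from 0.93 for GBP7 to 1.69 for GBP6 on the log2 scale. All 8 genes had an unadjusted limma p below 0.05, from 0.00567 for GBP3 to 0.0259 for GBP7, and adjusted p from 0.194 to 0.3. GBP4 and GBP8 were below 1 scaled FPKM in every sh-NC library, and GBP6 in all but bulk sh-NC replicate 1. These genes passed the filter only through, or with the help of, sh-B7-H3 (1) libraries, so the count of 8 follows in part from the filter. Over all 12062 genes tested, 1767 had an unadjusted p below 0.05 and 0.464% were called.

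Among control tumors, the difference between bulk and sorted material varied between genes. GBP2 had a log2 difference, bulk minus sorted, of -0.15 (95% interval -0.49 to 0.18, limma adjusted p = 0.505), and GBP7 of 0.36 (adjusted p = 0.251), with overlapping libraries. GBP5 and GBP9 were higher in bulk, by 0.51 (SE 0.12, limma adjusted p = 0.024) and 0.77 (SE 0.11, limma adjusted p = 0.00382), where 10.4% of 11418 genes were called higher and 16.9% in either direction. Both were below 1 scaled FPKM in every sorted sh-NC library and passed the filter only through the bulk libraries, so the count of 2 among 5 genes tested is no result about the family. GBP3 was not called, at 0.35 (limma adjusted p = 0.107), although its libraries did not overlap. GBP4, GBP6 and GBP8 fell below the filter. Every bulk library lay above every sorted one for 6 of 8 genes, all but GBP2 and GBP7. The share was 21.3% among genes that passed the filter, which leaves out GBP4, GBP6 and GBP8, so count and share cover unlike sets. Group means were 0.409 against 0.0496 scaled FPKM for GBP4, 0.947 against 0.505 for GBP6 and 0.440 against 0.0274 for GBP8. Bulk sh-NC tumors also had all 5 leukocyte and all 6 macrophage markers called higher than sorted sh-NC cells, and the part of host cells in the GBP values was not tested. The count of 2 went to 4 without sorted sh-NC replicate 1, to 1 without sorted sh-NC replicate 2 or 3, and to 0 without any bulk sh-NC replicate, when both genes left the test. Among the genes of the full comparison, GBP9 kept an adjusted p between 0.00544 and 0.0265 without any 1 library, while GBP5 kept its call only without sorted sh-NC replicate 1 and reached 0.105 otherwise. GBP5 was also not called with quantile normalization (0.19, adjusted p = 0.301) or with all 15 libraries in 1 fit (adjusted p = 0.223).

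Among tumors labelled sh-B7-H3 (1) the order was the other way round, with all 8 estimates lower in bulk than in sorted cells. GBP2 fell by 1.82 (SE 0.48, limma adjusted p = 0.0216), GBP3 by 1.17 (SE 0.38, adjusted p = 0.0434) and GBP6 by 1.32 (SE 0.44, adjusted p = 0.0468) on the log2 scale, bulk minus sorted. These were 3 of 8 genes, where 17.1% of 11677 genes were called lower and 38.2% in either direction. The other 5 had differences between -1.15 and -0.57 (limma adjusted p = 0.0745 to 0.187). Bulk libraries lay below all sorted libraries for 5 of 8 genes, which 25.0% of all genes did, and GBP4, GBP8 and GBP9 overlapped. Without sorted sh-B7-H3 (1) replicate 1 no gene was called, and without bulk replicate 1 or 3 or sorted replicate 2 or 3, 1 was.

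Other GTPases of the wider GBP group were looked up from lists chosen with earlier results of these data known. GBP10, which shares 77.8% of its 75-base stretches with other transcripts, rose in sorted cells, from between 0.174 and 0.190 scaled FPKM with sh-NC to between 2.90 and 7.28 in the 6 knockdown libraries (log2 difference 2.08, SE 0.20, limma adjusted p = 4.47e-05), and by 2.07 without sh-B7-H3 (2) replicate 1. It passed the filter on low values only through the knockdown libraries, where it is high, so its call follows in part from the filter. GBP2B reached at most 0.0838 scaled FPKM in sorted sh-NC cells and between 0.323 and 1.23 in knockdown cells, and GBP11 at most 0.0167 and between 0.263 and 0.790, and neither passed the filter. Of the atlastins, relatives that shape the endoplasmic reticulum, ATL2 rose by 0.46 (limma adjusted p = 0.0328, or 0.0646 without sh-B7-H3 (2) replicate 1), ATL3 was not called, at -0.17 (adjusted p = 0.292), and ATL1 was below the filter. All 3 very large inducible GTPases rose, GVIN1 by 1.02, GM4070 by 0.99 and GM1966 by 0.56 (limma adjusted p = 0.0225, 0.000584 and 0.0328), where 12.6% of genes tested were called higher. GM1966 was below 1 scaled FPKM in all 3 sh-NC libraries and passed the filter only through the knockdown libraries, so the count follows in part from the filter. For each shRNA alone only GVIN1 and GM4070 were tested, and both were called. Without replicate 1 of sh-B7-H3 (2), GVIN1 was not called for that shRNA, at 0.65 (limma adjusted p = 0.0513).

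The IRGs, which act with GBPs at pathogen vacuoles, rose in 8 of 8 cases in sorted cells over both shRNAs, with a median log2 difference of 3.0. Of all genes tested there, 12.6% were called higher. GM12250, at a mean of 0.657 scaled FPKM with sh-NC, passed the filter with the help of knockdown libraries. The count of 8 therefore follows in part from the filter. IRGM1, a regulator that keeps other IRGs inactive, had 43.1 scaled FPKM on average with sh-NC and 218 over both shRNAs, a log2 difference of 2.30 (limma adjusted p = 1.85e-05). The effector TGTP1 rose by 3.57 and IIGP1 by 2.86 (limma adjusted p = 1.48e-05 and 6.98e-05). TGTP1 and TGTP2 are near-identical copies, so reads may have been split between them. Without sh-B7-H3 (2) replicate 1 all 8 IRG genes remained called, with a median of 2.98. In bulk tumors 4 of 8 IRG genes were called higher, with a median of 1.39, where 12.8% of all genes tested were called higher.

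Upstream of the family, 12 of 14 genes of the IFN-γ signal and its factors were tested in sorted cells. Over both shRNAs 7 rose and 1 fell, where 12.6% of all genes tested were called higher and 7.92% lower. The transcription factor IRF1, which binds ISREs, rose by 2.87 (SE 0.21, limma adjusted p = 6.16e-06), from a mean of 7.08 to 59.5 scaled FPKM. SOCS1, a feedback inhibitor of the receptor's kinases, rose by 1.52 (limma adjusted p = 0.000219). STAT2, IRF2, IRF9 and IFNGR2, a chain of the IFN-γ receptor, rose by between 0.43 and 0.66, and the kinase JAK1 fell by 0.44 (limma adjusted p = 0.0477, or 0.0878 without sh-B7-H3 (2) replicate 1). The other 7 calls of this list remained without that library, IRF1 at 2.79 and SOCS1 at 1.44. For each shRNA alone, IRF1 and SOCS1 were called with both. IFNGR2 was called for sh-B7-H3 (1) only, STAT2 and IRF9 for sh-B7-H3 (2) only, and IRF2 and JAK1 for neither. IFNG was listed at 0 in 8 of 9 sorted libraries and at 0.724 scaled FPKM in sh-B7-H3 (2) replicate 1, the library with host-cell markers. In bulk tumors IFNG was listed at 0.174, 0.0780 and 0 with sh-B7-H3 (1) and at 0, 0.0404 and 0 with sh-NC, in the order of replicates.

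**Figure D5:**
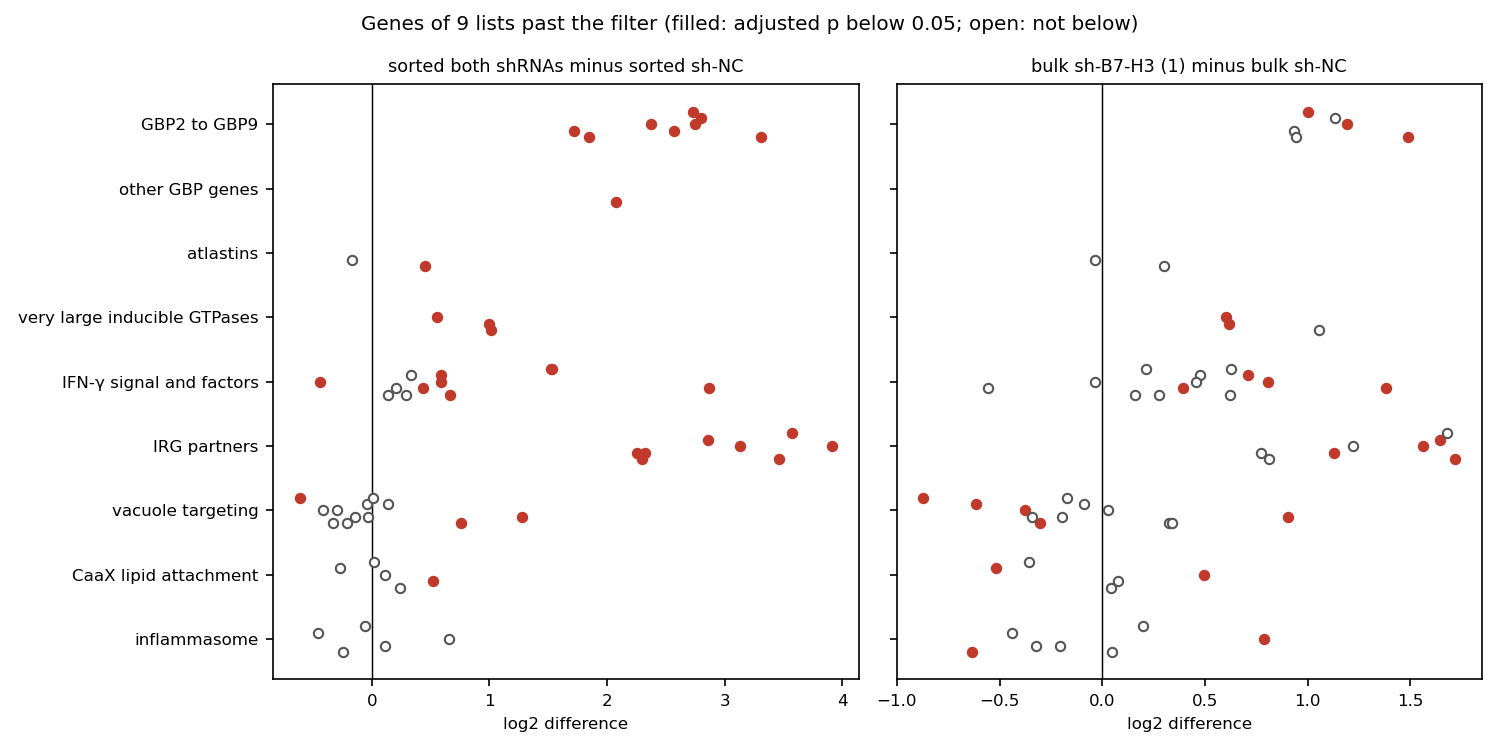
Log2 differences of the tested genes of 9 lists in sorted cells with either shRNA versus sh-NC (left) and in bulk sh-B7-H3 (1) against bulk sh-NC (right), with filled points for a limma adjusted p below 0.05. In sorted cells the GBP and IRG genes lie between 1.72 and 3.91, while the vacuole-targeting, lipid-attachment and inflammasome genes lie between -0.61 and 1.28.

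Genes that serve GBP proteins after translation showed few calls in sorted cells. Of 12 genes for vacuole targeting, which include the ubiquitin-like conjugation of autophagy, RNF213 and TRIM21, ubiquitin ligases, rose by 1.28 and 0.76 (limma adjusted p = 0.0187 and 0.00328), and SQSTM1, a cargo receptor, fell by 0.61 (adjusted p = 0.022). The list's median was -0.09. Of 5 genes for attaching lipids to C-terminal CaaX ends, FNTB, a farnesyltransferase subunit, rose by 0.52 (adjusted p = 0.00751). These values are over both shRNAs. TRIM21 was called for each shRNA, while RNF213, SQSTM1 and FNTB were called for sh-B7-H3 (2) but not for sh-B7-H3 (1). RNF213 was also called between the shRNAs, with a difference, (1) minus (2), of -0.76. Of 8 inflammasome genes, 5 were tested and 0 were called by limma over both shRNAs. AIM2, a DNA sensor, and GSDMD, the pore-forming gasdermin, had unadjusted p of 0.0348 and 0.0248 and log2 differences of 0.65 and -0.46. AIM2 was called higher for sh-B7-H3 (1) but not for sh-B7-H3 (2). Without sh-B7-H3 (2) replicate 1 GSDMD was called, at -0.55 (adjusted p = 0.0333), and the calls of RNF213, TRIM21, SQSTM1 and FNTB remained. Between the shRNAs AIM2 and GSDMD were called only without that library, at 0.86 and 0.47, (1) minus (2) (limma adjusted p = 0.0346 and 0.0354).

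In bulk tumors the same lists held calls in both directions. RNF213 rose by 0.91 (limma adjusted p = 0.0181), while SQSTM1, GABARAPL2, ATG7 and MAP1LC3B fell by 0.87, 0.62, 0.38 and 0.30 (adjusted p = 0.00845, 0.0145, 0.0318 and 0.0469). AIM2 rose by 0.79 (adjusted p = 0.0472) and CASP4, the sensor of cytosolic lipopolysaccharide, fell by 0.63 (adjusted p = 0.0352). PGGT1B, the subunit of the geranylgeranyl transferase that modifies CaaX ends, rose by 0.50 and ICMT, which methylates them, fell by 0.52 (adjusted p = 0.0436 and 0.0355). IRF1 rose by 1.38 (adjusted p = 0.0193).

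The 8 genes moved closely together across libraries. Pearson's r between the log2 values of their 28 pairs ran from 0.90, for GBP2 and GBP8, to 0.99 over the 15 libraries, with a median of 0.97, and from 0.94 to 1.00 over the 9 sorted libraries. Without sh-B7-H3 (2) replicate 1 the medians were 0.97 over 14 libraries and 0.99 over 8 sorted ones. The pairs share the same libraries and the differences between groups, and are given as a description. Over the 15 libraries, the non-member genes most like the mean of the family were IRGM1 (r = 0.993), GM12250 (0.992), IGTP (0.991), IRF1 (0.990) and GBP10 (0.989), out of 11596 genes ranked. Over the 9 sorted libraries they were DDX60, CIITA, IL18BP, TRIM25 and C130026I21RIK, with r from 0.995 to 0.998 among 11572 genes. With that library left out, the same 5 genes led over 14 libraries, and CIITA, DDX60, GM5431, TRIM25 and GBP10 over 8 sorted ones.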

How the data were processed

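The authors deposited FPKM values for 24917 entries in 15 libraries of mouse RNA, with mm10 as the build in the submitters' processing notes. The aligner and counter of this table are not given in the sources used here, and the paper and the labels name different library kits. Another deposited table, of log2 values for a subset of genes, was not used. After 26 entries with symbols turned into dates were dropped, each library was rescaled by the median ratio to the geometric mean of the libraries, taken over the 9872 genes that reached 1 FPKM in all of them (factors 0.650 to 1.18). A gene was tested if at least 3 libraries of a comparison had 1 scaled FPKM or more. Comparisons used limma 3.58.1 under R 4.3.3 on log2(scaled FPKM + 1), with the prior variance following the mean, only the compared groups in each fit, and Benjamini-Hochberg adjustment over all genes tested. The code was tested on simulated data. Replicates are numbered in the labels with no animal named, so p-values measure only the spread between these samples, which may in part be technical.

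The members and lists were chosen with earlier results of these data known. Named genes are the members, genes of the lists (1 list gene is counted but not reported here by itself), and the 5 non-member genes whose log2 values correlated best with the family mean, among genes averaging 1 scaled FPKM or more. Alternatives were FPKM as deposited, quantile normalization, no filter, a pseudocount of 0.1, the replicate number as a block, all 15 libraries in 1 fit, and each library left out. Leaving out a library while keeping the genes of the full comparison was added after seeing the data, as were values of the lists and correlations without sorted sh-B7-H3 (2) replicate 1. Deviations of same-numbered libraries correlated above 0.1 in all 3 replicates for 1 of 10 group pairs, sorted sh-B7-H3 (1) and (2) (r = 0.51, 0.43 and 0.44), and the block was read as a pairing there alone. Shared 75-base stretches were counted in GENCODE M21 transcripts. Positions and promoters are from RefSeq GRCm38.p6, and scripts ran under Python 3.11.15.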

Additional observations from a re-analysis of the deposited data

Results flagged for a closer look

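Of 19 values screened over the 6 sorted knockdown libraries (8 genes, their sum and 10 marker lists), 10 had a highest library that stood apart by Dixon's test, where chance flags about 5% of groups. GBP6, at 17.1 scaled FPKM, and GBP8, at 5.82, were flagged in sh-B7-H3 (1) replicate 1. That library was also the highest for the other 6 GBP genes of its group. In sh-B7-H3 (2) replicate 1 the flagged sums were 176 scaled FPKM for leukocyte markers, 14.1 for T cells, 310 for macrophages, 7.11 for dendritic cells, 8.78 for B cells, 10.7 for neutrophils, 15.7 for endothelial cells and 4.88 for Y-linked genes. For every GBP gene and for their sum, sh-B7-H3 (1) replicate 1 was the highest of the 6 libraries. The screen therefore could not flag a GBP gene as high in sh-B7-H3 (2) replicate 1. That library was the highest of its own group for 7 of the 8 genes.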

How the results depend on the processing

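In sorted cells against sh-NC, all 8 genes were called higher under every alternative that kept them in the test. The count was 8 under each scaling, filter, pseudocount, block and pooled fit, 3 to 8 without 1 library for either shRNA, and 8 to 8 for both together. The lower counts come from fewer genes tested.

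Counts of GBP genes called moved elsewhere. In bulk tumors the count of 3 was 6 on FPKM as deposited, 0 without the filter, 5 with all 15 libraries in 1 fit and 0 to 6 without 1 library. For bulk against sorted sh-NC the count of 2 was 0 as deposited, 1 with quantile normalization, 5 without the filter, 0 in the pooled fit and 0 to 4 without 1 library (1 to 4 among the genes of the full comparison). For bulk against sorted sh-B7-H3 (1) the count of 3 was 8 as deposited, 0 without the filter, 5 in the pooled fit and 0 to 3 without 1 library. For the difference of effects it was 0, and 4 as deposited. Between the shRNAs it was 0, and 0 to 1 without 1 library.

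With the replicate number as a block, the counts of all genes called were 915 for sorted sh-B7-H3 (1), 1395 for sorted sh-B7-H3 (2), 1864 between the shRNAs, 1413 in bulk tumors and 24 for the difference of effects, and 6 GBP genes were called in bulk against sorted sh-B7-H3 (1). GBP5 lost its call in bulk tumors under the block (limma adjusted p = 0.0509). No other GBP call was lost. Apart from the shRNA pair, libraries shared only a number.

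Counts of all genes called were 961 in bulk tumors, 652 for bulk against sorted sh-NC and 128 for the difference of effects on FPKM as deposited, 137 between the shRNAs without the filter, and 25 for the difference of effects with a pseudocount of 0.1. In the pooled fit they were 3082 for bulk against sorted sh-NC and 36 for the difference of effects. Without 1 library they ran from 722 to 1948 for sorted sh-B7-H3 (1) (992 to 1992 among the genes of the full comparison), 962 to 3614 for sorted sh-B7-H3 (2) (1284 to 3650), 1414 to 2584 for both (1434 to 2610), 35 to 890 between the shRNAs (56 to 952), 546 to 3793 in bulk tumors (737 to 3948), 139 to 4436 for bulk against sorted sh-NC (685 to 4440), 1674 to 3814 for bulk against sorted sh-B7-H3 (1) (2332 to 4278), and 12 to 72 for the difference of effects (15 to 103). The cause was not tested.

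The median of all genes moved by 0.17, 0.20 and 0.19 for sh-B7-H3 (1), (2) and both in sorted cells on FPKM as deposited, by -0.12 and -0.26 for bulk against sorted sh-NC and sh-B7-H3 (1), and by 0.14 for the difference of effects. The share of calls that were higher was 61.4% for both shRNAs, 86.4% as deposited and 49.3% with quantile normalization. It was 67.3 and 84.2% (as deposited) for sh-B7-H3 (1), 61.1, 83.2 and 49.7% for sh-B7-H3 (2), 60.1, 70.2 and 46.4% in bulk tumors, 61.5, 79.8 and 43.7% for bulk against sorted sh-NC, 55.2 and 22.8% (as deposited) for bulk against sorted sh-B7-H3 (1), and 53.6, 67.2 and 64.3% for the difference of effects.

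Signs turned only between the shRNAs. Without 1 library the differences there ran from -0.72 to 0.061 for GBP4, -0.19 to 0.41 for GBP6, -0.058 to 0.31 for GBP7 and -0.22 to 0.30 for GBP9. The reversals came without sh-B7-H3 (1) replicate 1 (GBP6, GBP7 and GBP9), sh-B7-H3 (1) replicate 3 (GBP4) or sh-B7-H3 (2) replicate 3 (GBP9), and the only call was that of GBP4 without sh-B7-H3 (1) replicate 1.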
